A study of Homo sapiens with 6 samples.

Results

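The genes of MHC class I antigen presentation were followed across 3 transfection groups of MDA-MB 231 cells. They were chosen by symbol and comprise 9 of the 24462 gene symbols in the count tables. HLA-B, HLA-C, HLA-E and HLA-F encode class I heavy chains, B2M encodes the light chain beta-2-microglobulin, and TAP1, TAP2 and TAPBP encode the machinery that brings peptides to them. NLRC5 encodes the transactivator of class I genes. All 9 symbols were present in every library, and all 9 passed the filter on low counts that left 12650 genes to be compared. The lowest count of any of them was 15, for HLA-F in replicate 2 of the third group described below.

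MDA-MB 231 is a line derived from a human triple-negative breast cancer, and the study asked which genes respond to the microRNA miR-200a and to ELK3, an ETS family transcription factor, in these cells. RNA was collected at 48 h and read by QuantSeq, a method that sequences a polyadenylated RNA next to its 3′ end, so that counts were not divided by transcript length. The first group received the negative control (NC) mimic, whose dose the labels do not give. The second received the miR-200a mimic at 100 nM. The third carries the label miR-200a plus ELK3 and received the same mimic together with 30 ng of a pcDNA3.1 plasmid that encodes ELK3 without an intact 3′UTR. Whether the first and second groups received an empty plasmid is not stated. Each group holds 2 libraries, and nothing says that these came from separate cultures, so p-values measure only the spread between these libraries, which may be technical.

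Total counts ranged from 3055915 to 4868004 per library with a median of 4444804. ELK3 served as the check of the labels, and its level was not higher in the third group. On the CPM scale, which relates counts to library size by edgeR's TMM method, ELK3 stood at 138 and 166 for the NC mimic, at 102 and 103 after miR-200a, and at 96.2 and 79.2 in the third group. By edgeR's quasi-likelihood test, ELK3 was lower in the third group than with the NC mimic (log2 fold change -0.79, adjusted p = 0.0117). It was not called against miR-200a (-0.23, adjusted p = 0.354), nor with miR-200a against the NC mimic (-0.56, adjusted p = 0.232). How reads of a plasmid transcript without the ELK3 3′UTR were counted is not stated, so the counted ELK3 level does not check the plasmid. By qRT-PCR and western blot, the paper reports ELK3 mRNA and protein back at the control level with its plasmid added. The third group is called by its label, in short the ELK3-labelled libraries. Their replicates lay farther from each other than those of the other groups. The root mean square of the log2 CPM differences over the tested genes was 0.559 between them, compared with 0.403 in the NC mimic group and 0.342 in the miR-200a group. Values are therefore given for each library. Of the markers of this line, the 6 mesenchymal genes VIM, CD44, AXL, MSN, ZEB1 and CAV1 were counted in every library, and their summed level was 4594 to 4857 CPM in the NC mimic and miR-200a libraries and 4180 and 3272 CPM in the ELK3-labelled ones. The 6 luminal markers summed to between 44.2 and 83.7 CPM, most of it from ERBB2 and EPCAM, with ESR1, the estrogen receptor gene, at 0 in every library. EPCAM stood at 8.69 and 13.1 CPM with the NC mimic but at 29.1 and 28.5 CPM in the miR-200a libraries (adjusted p = 0.0713). The 7 leukocyte markers summed to between 1.11 and 4.50 CPM, with MS4A1 and ITGAM at 0 throughout, where 3 counts would have been 0.611 to 0.979 CPM.

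Class I molecules display peptides from inside the cell to CD8+ T cells and natural killer cells. Proteasome products enter the endoplasmic reticulum through the TAP1-TAP2 transporter, tapasin (TAPBP) holds the transporter next to a waiting heavy chain, and a heavy chain that has bound beta-2-microglobulin and a peptide travels to the cell surface. Transcription of these genes rises with interferon, in part through IRF1, and with NLRC5, which acts on the conserved SXY module of class I promoters. Tumor cells often carry low class I levels, and loss of B2M or of the transporter is a known route of escape from T cells.

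The miR-200a mimic could act on a transcript that holds a match to its seed, so the 3′UTRs were searched for it. The mature sequence is shown first because its seed, bases 2 to 8 in capitals, defines the 7-base match CAGTGTT. It is encoded at chr1:1167916-1167937 on the plus strand (RefSeq, GRCh38.p14). Of the 9 genes, B2M and NLRC5 hold 1 match each in the 3′UTR of the annotated transcript (GENCODE release 29, GRCh38), and the other 7 hold 0. Over all 18914 genes with a 3′UTR, 16.6% hold at least 1. The B2M match lies at chr15:44718755-44718761, 116 bases before the transcript end, and the NLRC5 match at chr16:57083434-57083440, 84 bases before it. Both are on the plus strand, neither is followed by an A, and the capitals in their windows mark the match.
miR-200a-3p: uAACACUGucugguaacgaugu
B2M: tttttttcccCAGTGTTtttgatccat
NLRC5: acatgttaccCAGTGTTcttgttactt

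To ask whether miR-200a altered the class I genes, the miR-200a libraries were first compared with the NC mimic libraries. No member changed at an adjusted p under 0.05 by edgeR's quasi-likelihood test, and 0 of the 9 had an unadjusted p under 0.05. Over all 12650 tested genes, 1169 had an unadjusted p under 0.05. DESeq2 and limma also called 0. In this comparison 0.269% of all tested genes were called in all, 0.213% higher and 0.0553% lower. The largest differences among the members were those of NLRC5, with a log2 fold change of 0.60 (95% interval -0.16 to 1.35, adjusted p = 0.662), and TAP2, with 0.22 (-0.13 to 0.57, adjusted p = 0.737). For HLA-B the interval of the difference, -0.42 to 0.31, includes moderate changes in either direction, and that of B2M was -0.30 to 0.51. These intervals and calls rest on a spread estimated over all 6 libraries. That includes the ELK3-labelled pair, whose replicates lay farthest apart and which is not compared here. In a model of the 2 compared groups 983 genes were called instead of 34, and still 0 members.

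To ask how the addition of the plasmid went with these genes, the ELK3-labelled libraries were compared with the miR-200a libraries. HLA-B, HLA-C, HLA-E and B2M were lower in the ELK3-labelled libraries, by 2.25, 1.84, 1.39 and 1.70 times respectively, and no member was called higher. These 4 calls of 9 members (44.4%) stand against 12.9% of all tested genes, of which 7.03% were higher and 5.91% lower. HLA-F had a log2 fold change of -1.09 that missed the threshold (adjusted p = 0.0865), and TAP1, TAP2, TAPBP and NLRC5 were not called. These calls were not held under every setting. Leaving out either miR-200a library, or using limma on quantile-normalized values, left 0 members called. Leaving out either NC mimic library, which enters only through the shared estimate of the spread, left HLA-B and HLA-C, and so did a model of the 2 compared groups.

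The same ELK3-labelled libraries were then compared with the NC mimic. HLA-B, HLA-C, HLA-E and B2M were again lower, by 2.33, 1.92, 1.44 and 1.58 times, and TAP2 was 1.61 times higher. That is 5 of 9 members (55.6%), compared with 12.9% of all tested genes, 6.92% higher and 5.95% lower. Because both comparisons use the same ELK3-labelled libraries, the second is no independent repeat of the first. Without either NC mimic library 0 members were called, without either miR-200a library 2 were (HLA-B and HLA-C), and limma called HLA-C alone.

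**Figure D1:**
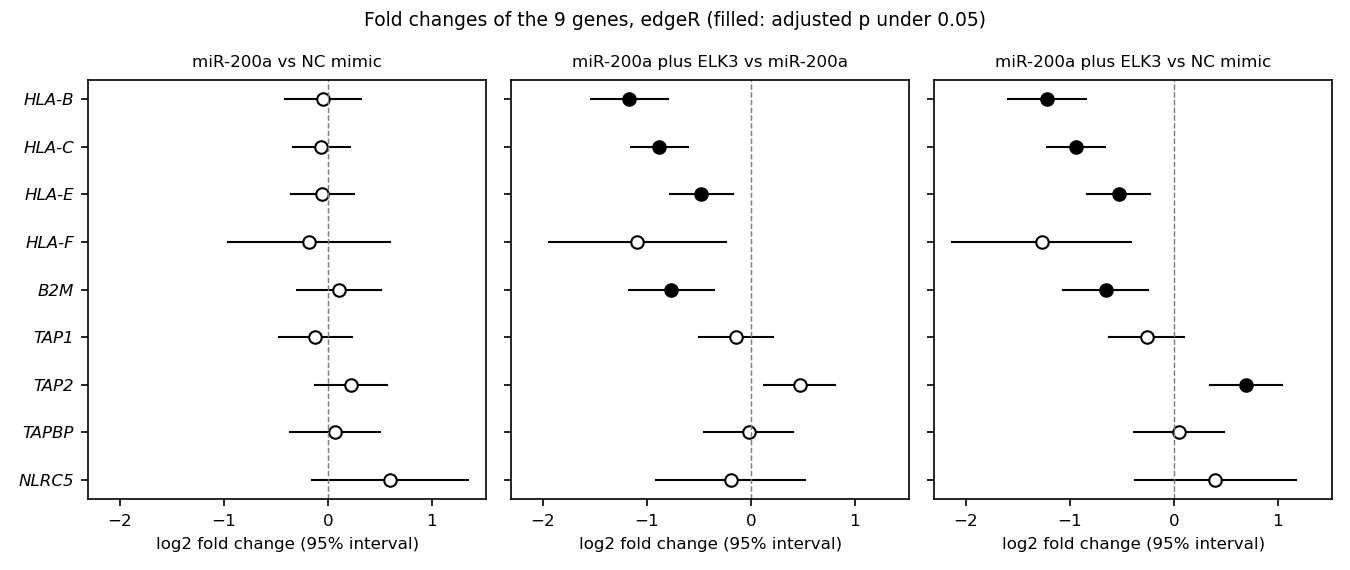
Log2 fold changes of the 9 genes in the 3 comparisons, with 95% intervals from edgeR and filled circles where the adjusted p is under 0.05. All intervals include 0 in the left panel, and HLA-B, HLA-C, HLA-E and B2M lie below 0 with filled circles in the middle and right panels, where TAP2 lies on the other side of 0 (filled only in the right panel).

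HLA-B, a classical heavy chain gene whose product presents peptides to CD8+ T cells, was counted 2497 and 1753 times in the NC mimic libraries, 2580 and 2715 times in the miR-200a libraries, and 1223 and 828 times in the ELK3-labelled libraries. In CPM these were 556 and 572, then 536 and 553, then 290 and 195. The ELK3-labelled libraries lay below all 4 others, and replicate 2 was the lower of them. The mean was 564 ± 11.3 (SD, n = 2) for NC mimic libraries and 544 ± 12.4 (SD, n = 2) for miR-200a libraries, whereas it was 242 ± 67.2 (SD, n = 2) for the ELK3-labelled ones. HLA-B thus had a log2 fold change of -1.17 (SE 0.17, adjusted p = 0.00378) against miR-200a and -1.22 (SE 0.17, adjusted p = 0.00258) against the NC mimic. Over the 16 alternative settings its fold change against miR-200a kept its sign, from -1.495 to -0.94. The gene model spans chr6:31269491-31357188 on the minus strand and overlaps that of HLA-C on the same strand.

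HLA-C, the classical heavy chain that is also a main ligand of inhibitory receptors on natural killer cells, followed with less spread. It was counted 1216 and 811 times in the NC mimic libraries, 1210 and 1284 times in the miR-200a libraries, and 626 and 554 times in the ELK3-labelled libraries. Its levels were 271 and 265 CPM, 251 and 262 CPM, and 148 and 130 CPM in the same order, so that the ELK3-labelled libraries were again below all others. Its log2 fold change was -0.88 (SE 0.12, adjusted p = 0.00348) against miR-200a and -0.94 (SE 0.13, adjusted p = 0.00208) against the NC mimic, and between miR-200a and the NC mimic it was -0.06 (95% interval -0.33 to 0.21). HLA-C lies at chr6:31268749-31272130 on the minus strand. Between the annotated transcripts of HLA-C and HLA-B, 13 of 451 stretches of 50 bases (2.88%) in the last 500 bases of each also occur in the other. Matches with mismatches and the alleles of this line were not examined, so this does not bound the confusion of reads between them.

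HLA-E presents a narrow set of peptides, mainly from the leader sequences of other heavy chains, to NKG2 receptors. It was counted 999 and 668 times in the NC mimic libraries, 1029 and 1035 times in the miR-200a libraries, and 575 and 718 times in the ELK3-labelled libraries. At 222 and 218, 214 and 211, and 136 and 169 CPM it was lower in the ELK3-labelled libraries as well, but here replicate 2 was the higher of the pair, while it was the lower for HLA-B, HLA-C, HLA-F and B2M. The log2 fold change was -0.48 (SE 0.14, adjusted p = 0.0451) against miR-200a and -0.53 (SE 0.14, adjusted p = 0.0320) against the NC mimic. The first of these lay close to the threshold. It was not called by DESeq2 (adjusted p = 0.0566), by limma (adjusted p = 0.114) or in the model of the 2 compared groups (adjusted p = 0.106). The second was lost in that model (adjusted p = 0.0915) and with limma. Without ELK3-labelled replicate 1 the first value was -0.34, and without replicate 2 it was -0.67. HLA-E lies at chr6:30489467-30494205 on the plus strand.

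HLA-F, a nonclassical heavy chain gene, was the least counted of the heavy chains examined. It was counted 74 and 47 times in the NC mimic libraries, 66 and 71 times in the miR-200a libraries, and 41 and 15 times in the ELK3-labelled libraries. In CPM these were 16.5 and 15.3, 13.7 and 14.5, and 9.71 and 3.53. Both ELK3-labelled libraries were below the others, yet they differed from each other by more than the first of them differed from miR-200a. Expressed as a log2 fold change, this was -1.09 (95% interval -1.94 to -0.24, adjusted p = 0.0865) against miR-200a and -1.27 (-2.13 to -0.41, adjusted p = 0.0567) against the NC mimic. Without replicate 1 of the ELK3-labelled libraries the first value was -2.01, and without replicate 2 it was -0.57. Such a fit has 1 library in that group and takes its spread from the other groups. The value against the NC mimic was called in 5 of the 16 alternatives, among them DESeq2 (adjusted p = 0.0434), upper-quartile normalization (adjusted p = 0.0472) and no filter (adjusted p = 0.00165). HLA-F lies at chr6:29722775-29738528 on the plus strand, where HLA-F-AS1 overlaps it on the other strand, and whether the counting used strand is not stated.

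**Figure D2:**
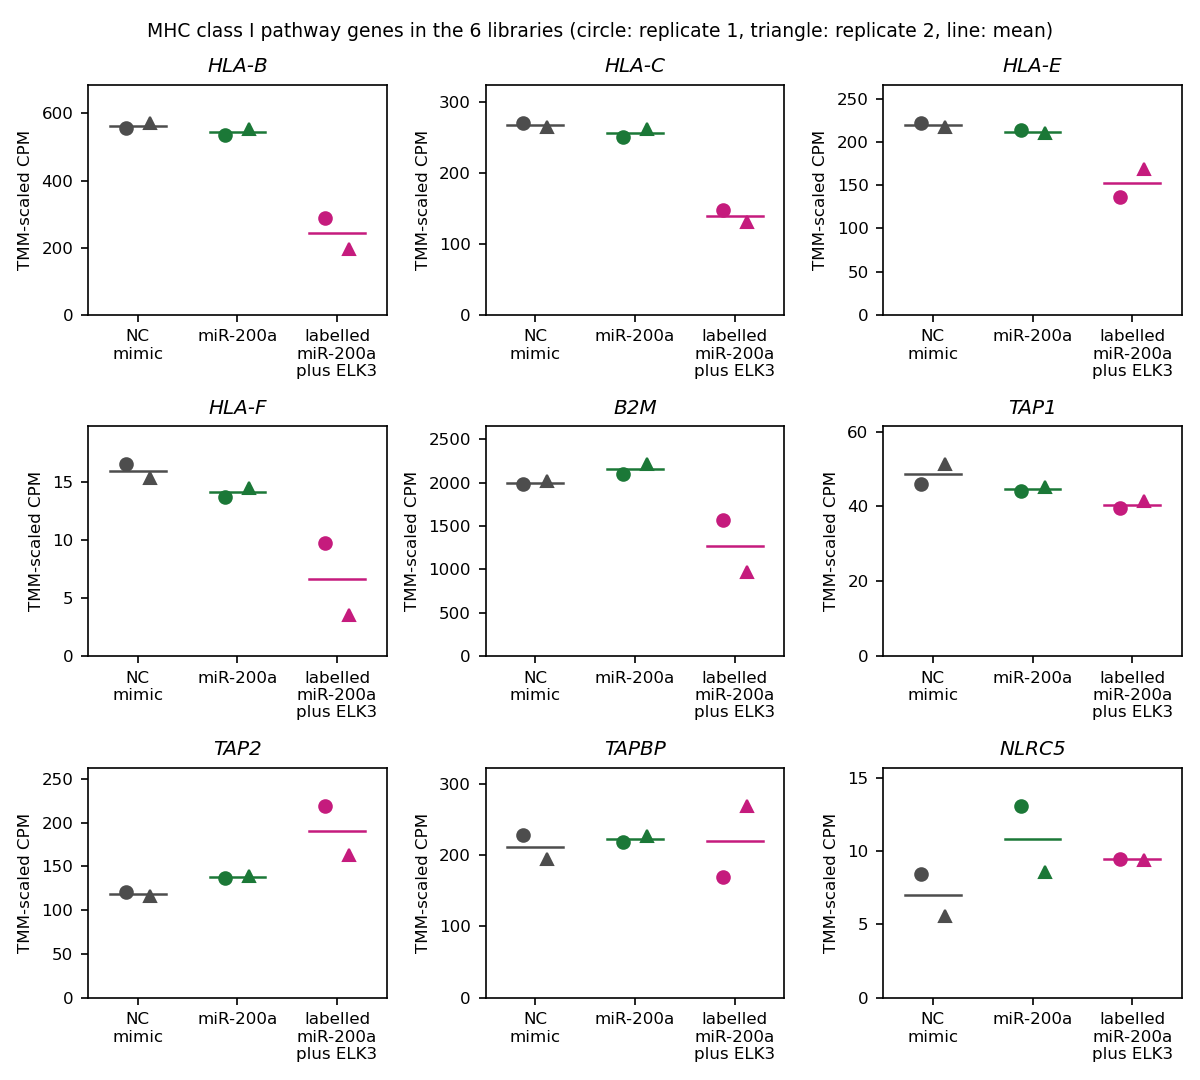
TMM-scaled CPM of each gene in the 6 libraries, with circles for replicate 1, triangles for replicate 2 and lines at the group means. HLA-B, HLA-C, HLA-E, HLA-F and B2M sit lowest in both ELK3-labelled libraries, TAP2 sits highest there, and the 2 ELK3-labelled values of TAPBP lie on either side of those of the other groups.

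Since heavy chain genes resemble each other, their counts were also summed, which is free of any exchange of reads among them. The 4 genes together stood at 1066 and 1070 CPM in the NC mimic libraries, 1014 and 1040 CPM in the miR-200a libraries, and 584 and 497 CPM in the ELK3-labelled libraries. The 2 ELK3-labelled values were closer to each other than those of HLA-B alone. The sum was 1.94 times lower than with miR-200a (log2 fold change -0.96, SE 0.12, adjusted p = 0.00184) and 2.00 times lower than with the NC mimic (-0.997, SE 0.12, adjusted p = 0.00100). Against the NC mimic this call held in all 15 alternatives run. Against miR-200a it was lost without miR-200a replicate 1 (adjusted p = 0.0728), without miR-200a replicate 2 (adjusted p = 0.0713) and with limma (adjusted p = 0.0578).

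The make-up of this sum was nearly the same in the NC mimic and miR-200a libraries, where HLA-B took 52.2% to 53.5% of it, HLA-C 24.7% to 25.4%, HLA-E 20.3% to 21.1% and HLA-F 1.35% to 1.55%. In ELK3-labelled replicate 1, HLA-E took 23.3% (95% Wilson interval 21.7% to 25.0%) and HLA-B 49.6% (47.6% to 51.6%). In replicate 2, HLA-E took 33.95% (32.0% to 36.0%) and HLA-B 39.15% (37.1% to 41.2%). HLA-E thus had a larger share in both ELK3-labelled libraries than in any other, by clearly different amounts, while the share of HLA-C stayed between 24.7% and 26.2% in all 6. The intervals cover counting error only, and with 2 libraries a group the shares are given as a description without a test.

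**Figure D3:**
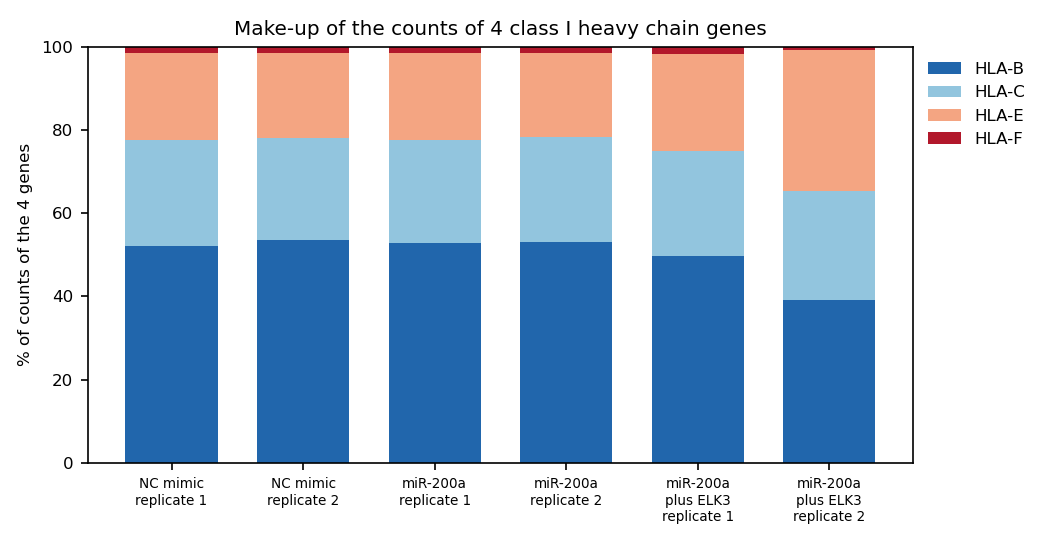
Percentage of the summed counts of HLA-B, HLA-C, HLA-E and HLA-F taken by each gene, with 1 bar for each library. The HLA-E part grows from 20.3% to 21.1% in the first 4 bars to 23.3% and 33.95% in the ELK3-labelled bars, where the HLA-B part is smaller.

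B2M, the light chain shared by all class I molecules, was the most counted of the 9 genes. It was counted 8897 and 6196 times in the NC mimic libraries, 10133 and 10855 times in the miR-200a libraries, and 6637 and 4111 times in the ELK3-labelled libraries. Its levels were 1981 and 2022, 2104 and 2212, and 1572 and 966 CPM, so that B2M was lowest in the ELK3-labelled libraries although these differed from each other by a factor of more than 1.5. B2M took 0.196% to 0.223% of all counts in the first 4 libraries and 0.157% and 0.0945% in the last pair. The corresponding log2 fold change was -0.77 (SE 0.18, adjusted p = 0.0252) against miR-200a and -0.66 (SE 0.18, adjusted p = 0.0423) against the NC mimic. Neither was called in the model of the 2 compared groups, where the adjusted p was 0.0741 and 0.101. The size depended on the ELK3-labelled library. Without replicate 1 the values were -1.17 and -1.05, and without replicate 2 they were -0.49 and -0.36. With miR-200a alone, whose seed match the annotated B2M transcript holds, B2M had a log2 fold change of 0.11 (95% interval -0.30 to 0.51, adjusted p = 0.925), with both miR-200a libraries above both NC mimic libraries. Whether the B2M RNA of these cells extends to that match was not examined. B2M lies at chr15:44711487-44718877 on the plus strand, and none of the 50-base stretches of its last 500 bases occurs in another gene. In bulk RNA of a transfected culture, a lower level in every cell and a strong loss in some of the cells cannot be told apart. The sum of the mesenchymal markers named above was also lower in the ELK3-labelled libraries. Of the 6 genes CD44 alone was called in both comparisons (log2 fold change -0.61, adjusted p = 0.0151, and -0.58, adjusted p = 0.0181). VIM, which has the most counts among them, had values of -0.66 and -0.72 that were not called (adjusted p = 0.0918 and 0.0722), and AXL had 0.23 and 0.19 (adjusted p = 0.319 and 0.418). Their part in the class I values was not tested.

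The promoters of HLA-B and HLA-C, which fell together, and of HLA-F are shown because they carry the module that sets class I transcription. RefSeq promoter windows of 250 bases before to 50 after the start were at hand for 7 of the 9 genes. In the stretches from 120 to 46 bases before the start (GRCh38.p14), the capitals mark TGACG, the core of the cyclic AMP response element, and CCAAT or its reverse complement ATTGG, the letters read by NF-Y. HLA-B lies at chr6:31357225-31357299 and HLA-C at chr6:31272138-31272212, both on the minus strand, and HLA-F at chr6:29723314-29723388 on the plus strand.
HLA-B: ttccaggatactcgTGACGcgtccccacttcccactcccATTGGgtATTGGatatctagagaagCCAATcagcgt
HLA-C: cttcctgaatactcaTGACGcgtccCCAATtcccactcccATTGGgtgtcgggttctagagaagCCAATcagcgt
HLA-F: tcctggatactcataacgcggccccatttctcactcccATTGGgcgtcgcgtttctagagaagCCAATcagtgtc
All 3 hold ATTGG and CCAAT on either side of a similar stretch, and HLA-B and HLA-C also hold TGACG upstream of them. These letters are common, since 34.6% of all 35116 promoter windows hold CCAAT on one strand or the other and 24.6% hold TGACG. HLA-B further holds GGGGATTCC, a match to NF-kB sites, 177 bases before the start, as do 0.285% of all windows.

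B2M is shown in the same way from 150 to 40 bases before its start (chr15:44711367-44711477, plus strand), where the first capitals mark 2 overlapping matches to the interferon-stimulated response element, searched as GAAA, any 2 bases and GAAA again, followed by TGACG and ATTGG. The transporter and tapasin promoters have matches to the same element, read on either strand and marked in capitals below: TAP1 at chr6:32853814-32853849, TAP2 at chr6:32838765-32838809 and TAPBP at chr6:33314079-33314108, each on the minus strand.
B2M: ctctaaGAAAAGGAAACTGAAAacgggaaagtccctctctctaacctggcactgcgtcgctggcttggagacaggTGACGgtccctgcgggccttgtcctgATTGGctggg
TAP1: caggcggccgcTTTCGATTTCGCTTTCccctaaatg
TAP2: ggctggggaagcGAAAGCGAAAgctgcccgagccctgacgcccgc
TAPBP: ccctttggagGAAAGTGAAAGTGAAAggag
This element occurs in 3.57% of all windows on either strand, and among the members also in HLA-F at 156 bases before the start. The ETS letters CCGGAA, found in 17.2% of all windows, occurred in 1 member, TAP1, at 47 bases before a second annotated start. A match is a description of these letters and not of a bound site. For the interferon element, B2M, which was called lower, holds matches, and so do TAP1, TAP2 and TAPBP, which were not. HLA-B and HLA-C, also called lower, hold none. CCAAT or ATTGG occurs in HLA-B, HLA-C, B2M and HLA-F, and in neither TAP2 nor TAPBP. TAP1 holds ATTGG only at the upstream end of its window. HLA-E and NLRC5 had no window at hand. Whether any of these letters go with the lower levels was not tested.

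TAP1, one of the 2 chains of the peptide transporter, was counted 207 and 157 times in the NC mimic libraries, 212 and 222 times in the miR-200a libraries, and 167 and 176 times in the ELK3-labelled libraries. In CPM these were 46.1 and 51.2, 44.0 and 45.2, and 39.6 and 41.4. The steps between the groups were small. Its log2 fold change was -0.14 (95% interval -0.50 to 0.21, adjusted p = 0.585) against miR-200a and -0.26 (-0.62 to 0.10, adjusted p = 0.302) against the NC mimic, which leaves out a fall as large as that of HLA-B. TAP1 lies at chr6:32845209-32853978 on the minus strand, and the model of PSMB9 overlaps it on the other strand.

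TAP2, the other chain of the transporter, went the other way. It was counted 540 and 357 times in the NC mimic libraries, 659 and 681 times in the miR-200a libraries, and 926 and 693 times in the ELK3-labelled libraries. Its CPM was 120 and 116, 137 and 139, and 219 and 163. The log2 fold change was 0.69 (SE 0.16, adjusted p = 0.0207) against the NC mimic and 0.47 (95% interval 0.13 to 0.81, adjusted p = 0.0699) against miR-200a. Without replicate 2 of the ELK3-labelled libraries the latter was 0.64, and without replicate 1 it was 0.23. The call against the NC mimic was lost in the model of the 2 compared groups (adjusted p = 0.0643) and with limma (adjusted p = 0.122). In the annotation AL669918.1 covers the whole of TAP2 (chr6:32821833-32838780) on the same strand. In the last 500 bases of the annotated TAP2 transcript, 0 of 451 stretches of 50 bases also occur in another gene. How reads that lie in both models were counted is not stated.

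TAPBP encodes tapasin, which joins the transporter to the heavy chain and edits its peptide. It was counted 1028 and 598 times in the NC mimic libraries, 1052 and 1113 times in the miR-200a libraries, and 715 and 1146 times in the ELK3-labelled libraries. At 229 and 195, 218 and 227, and 169 and 269 CPM, the ELK3-labelled libraries held both the lowest and the highest value, and they overlapped both other groups. Expressed as a log2 fold change, this was -0.02 (95% interval -0.45 to 0.41, adjusted p = 0.953) against miR-200a and 0.05 (-0.38 to 0.48, adjusted p = 0.897) against the NC mimic. Its direction depended on the library. Against miR-200a it was 0.26 without ELK3-labelled replicate 1 and -0.43 without replicate 2. TAPBP lies at chr6:33299694-33314387 on the minus strand.

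NLRC5, the transactivator that binds the class I promoter module with RFX and NF-Y factors, was counted at low levels. It was counted 38 and 17 times in the NC mimic libraries, 63 and 42 times in the miR-200a libraries, and 40 and 40 times in the ELK3-labelled libraries, or 8.46 and 5.55, 13.1 and 8.56, and 9.47 and 9.40 CPM. The ELK3-labelled values lay between those of the miR-200a libraries and above those of the NC mimic libraries. The corresponding log2 fold change was -0.20 (95% interval -0.91 to 0.52, adjusted p = 0.716) against miR-200a and 0.40 (-0.37 to 1.17, adjusted p = 0.473) against the NC mimic. With miR-200a alone, whose seed match its annotated transcript also holds, the log2 fold change was 0.60 with an interval of -0.16 to 1.35 that includes 0. NLRC5 lies at chr16:56989485-57083531 on the plus strand, with AC023825.2 antisense to it.

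Grouped by role, the 4 heavy chains and the light chain had a median log2 fold change of -0.88 against miR-200a and -0.94 against the NC mimic, with 4 of 5 called lower and 0 higher in each, beside medians of 0.016 and 0.010 over all tested genes. The 3 genes of peptide transport and loading had medians of -0.02 and 0.05, with 0 called against miR-200a and 1 called higher against the NC mimic. In summed CPM the first group stood at 3047 to 3252 in the NC mimic and miR-200a libraries and at 2156 and 1463 in the ELK3-labelled ones. The transport and loading group stood at 363 to 411 in the former and at 428 and 474 in the latter. Whether the 2 groups differ in their response was not tested.

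The partners of this machinery were read from lists of genes with known roles. Of all tested genes, 7.03% were called higher and 5.91% lower in the ELK3-labelled libraries than with miR-200a. Against the NC mimic these shares were 6.92% and 5.95%. The counts called in each list are to be read beside these shares. At an unadjusted p under 0.05, 1169 of all 12650 tested genes passed with miR-200a against the NC mimic. In the ELK3-labelled libraries 3867 passed against miR-200a and 3873 against the NC mimic. Counts of listed genes at an unadjusted p are to be read beside these. Of 10 genes of peptide loading and trimming, edgeR and DESeq2 called 0 with miR-200a against the NC mimic, where 1 had an unadjusted p under 0.05. BCAP31, a transport receptor of the endoplasmic reticulum that carries class I molecules, was the only one called in the ELK3-labelled libraries. It stood at 107 and 108 CPM in the NC mimic libraries, 106 and 101 CPM in the miR-200a libraries, and 175 and 204 CPM in the ELK3-labelled libraries. It was 1.83 times higher than with miR-200a (log2 fold change 0.87, SE 0.13, adjusted p = 0.00497) and 1.76 times higher than with the NC mimic (0.81, adjusted p = 0.00605). CALR, the chaperone calreticulin of the loading complex, had values of -0.10 (adjusted p = 0.543) and -0.22 (adjusted p = 0.197), and ERAP1, which trims peptides in the endoplasmic reticulum, had -0.28 (adjusted p = 0.330) and 0.17 (adjusted p = 0.562).

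Among the 6 genes of the immunoproteasome and its PA28 activators, 0 were called with miR-200a against the NC mimic (1 at an unadjusted p under 0.05 and 0 by DESeq2), 2 were higher in the ELK3-labelled libraries than with miR-200a, and 1 was higher than with the NC mimic. PSME3, which encodes the gamma form of PA28, had 97.3 and 91.4 CPM in the NC mimic libraries, 138 and 118 CPM in the miR-200a libraries, and 209 and 211 CPM in the ELK3-labelled libraries. Its log2 fold change was 0.71 (adjusted p = 0.0105) against miR-200a and 1.15 (adjusted p = 0.00119) against the NC mimic. PSME3 acts on nuclear proteasomes and is not one of the interferon-induced chains. PSME2, the beta chain of the interferon-induced form, was higher than with miR-200a (0.58, adjusted p = 0.0381) and had a value of 0.35 (adjusted p = 0.165) against the NC mimic. The catalytic chains PSMB8 and PSMB9 had log2 fold changes of 0.38 (adjusted p = 0.154) and -0.19 (adjusted p = 0.533) against miR-200a, and PSMB9 shares its locus with TAP1. The third of these chains, PSMB10, had 0.88 (adjusted p = 0.0610) against miR-200a and 0.95 (adjusted p = 0.0543) against the NC mimic.

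Of 15 transcription factors of class I promoters, IRF9 alone was called, and it was lower in the ELK3-labelled libraries. Among all tested genes, 5.91% were called lower than with miR-200a and 5.95% lower than with the NC mimic. IRF9, a DNA-binding factor of the interferon response, was counted 34 and 23 times in the NC mimic libraries, 41 and 37 times in the miR-200a libraries, and 12 and 11 times in the ELK3-labelled libraries. It was 2.96 times lower than with miR-200a (log2 fold change -1.56, SE 0.35, adjusted p = 0.0207) and 2.78 times lower than with the NC mimic (-1.47, SE 0.37, adjusted p = 0.0283), though DESeq2 did not call the latter. IRF1, at 39.9 to 54.3 CPM over the 6 libraries, had values of 0.08 (adjusted p = 0.814) and 0.21 (adjusted p = 0.487) in the same comparisons. The list as a whole had medians of 0.05 and -0.01, near those of all tested genes.

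Of 7 interferon receptors and their kinases, IFNGR2, a chain of the interferon gamma receptor, was lower than in NC mimic libraries (-0.74, adjusted p = 0.0191). Against miR-200a 0 were called, where 4 had an unadjusted p under 0.05 and DESeq2 called 1, and with miR-200a against the NC mimic 0 passed by any of these. Interferon-stimulated genes did not move as 1 block, as IFIT3 and GBP2 show. Of 35 listed genes 28 were tested, and 5 were lower and 0 higher in the ELK3-labelled libraries than with miR-200a, beside 5.91% lower and 7.03% higher of all tested genes. DESeq2 called 3 in this comparison. Among those that edgeR called were IFI27 (-1.46, adjusted p = 0.0167), BST2 (-1.43, adjusted p = 0.0285) and GBP2 (-1.02, adjusted p = 0.00257). Against the NC mimic 3 were higher, namely IFIT3 (1.15, adjusted p = 0.00121), IFIT2 (1.13, adjusted p = 0.00472) and DDX60 (1.07, adjusted p = 0.00677), and 2 were lower, namely GBP2 (-1.16, adjusted p = 0.000991) and UBE2L6 (-0.80, adjusted p = 0.0378). With miR-200a against the NC mimic, IFIT3 was the 1 gene called by edgeR (1.09, adjusted p = 0.0155), while DESeq2 called 4 and 9 of the 28 had an unadjusted p under 0.05.

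Class II genes, which serve CD4+ T cells, were also counted in these cells, and 10 of 12 were tested. With miR-200a against the NC mimic edgeR and DESeq2 called 0, and 1 had an unadjusted p under 0.05. HLA-DRA stood at 89.5 and 88.8 CPM in the NC mimic libraries, 103 and 94.3 CPM in the miR-200a libraries, and 55.2 and 50.8 CPM in the ELK3-labelled libraries. Its log2 fold change was -0.90 (adjusted p = 0.00599) and -0.75 (adjusted p = 0.0111) against miR-200a and the NC mimic. HLA-DPA1 was lower than with miR-200a (-0.89, adjusted p = 0.0445) and had a value of -0.19 (adjusted p = 0.667) against the NC mimic. CIITA, the class II transactivator, had only 4 to 20 counts per library and log2 fold changes of 1.08 (adjusted p = 0.159 and 0.176) in the same comparisons. Of 12 class I-like genes and NKG2D ligands, 6 were tested, and edgeR and DESeq2 called 0 in any comparison. At an unadjusted p under 0.05, 2 passed with miR-200a against the NC mimic, 2 in the ELK3-labelled libraries against miR-200a and 0 against the NC mimic. Beside them stand 1169, 3867 and 3873 of all 12650 tested genes in the same order.

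**Figure D4:**
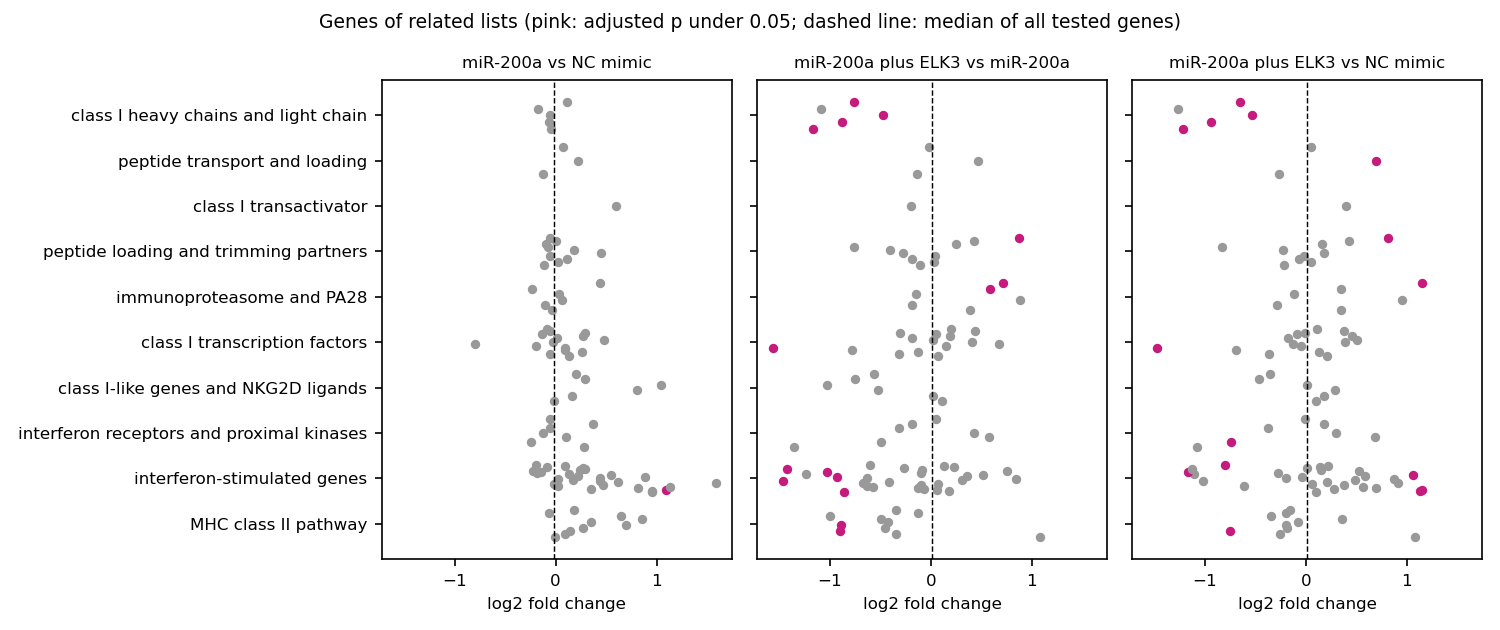
Log2 fold changes of the tested genes of each list in the 3 comparisons, with pink for an adjusted p under 0.05 and a dashed line at the median of all tested genes. The heavy and light chains lie left of the line in the middle and right panels, where the longer lists spread to both sides of it, and the left panel has 1 pink gene, IFIT3.

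The levels of HLA-B over the 6 libraries were most like those of CTGF, ZFP36L1, ERRFI1 and DUSP1 among genes outside the class I pathway, with Pearson correlations of log2 CPM of 0.9989, 0.9981, 0.9975 and 0.9974. CTGF, which encodes a matrix-associated growth factor, stood at 375, 365, 360 and 372 CPM in the NC mimic and miR-200a libraries and at 222 and 163 in the ELK3-labelled ones. Among the members, HLA-B was followed by HLA-C (0.987), B2M (0.961), HLA-F (0.953), HLA-E (0.803) and TAP1 (0.755), while TAP2 ran against it (-0.731). B2M was most like ITM2B (0.9984), ANKRD28 (0.9977), CEBPB (0.9975), NBPF9 (0.9966) and NOTCH2 (0.9964). The 6 points of each correlation share the same libraries and are set mainly by the difference of the ELK3-labelled libraries from the rest, so these are descriptions without a test.

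The plot of alternative settings shows how far each fold change moved when the model, scaling or filter was changed or 1 library was left out. HLA-B, HLA-C, HLA-E, HLA-F, B2M and TAP1 stayed negative and TAP2 positive in both comparisons with the ELK3-labelled libraries, in all 16 alternatives with a fold change. TAPBP changed sign in both, and NLRC5 changed sign against miR-200a without miR-200a replicate 1.

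**Figure D5:**
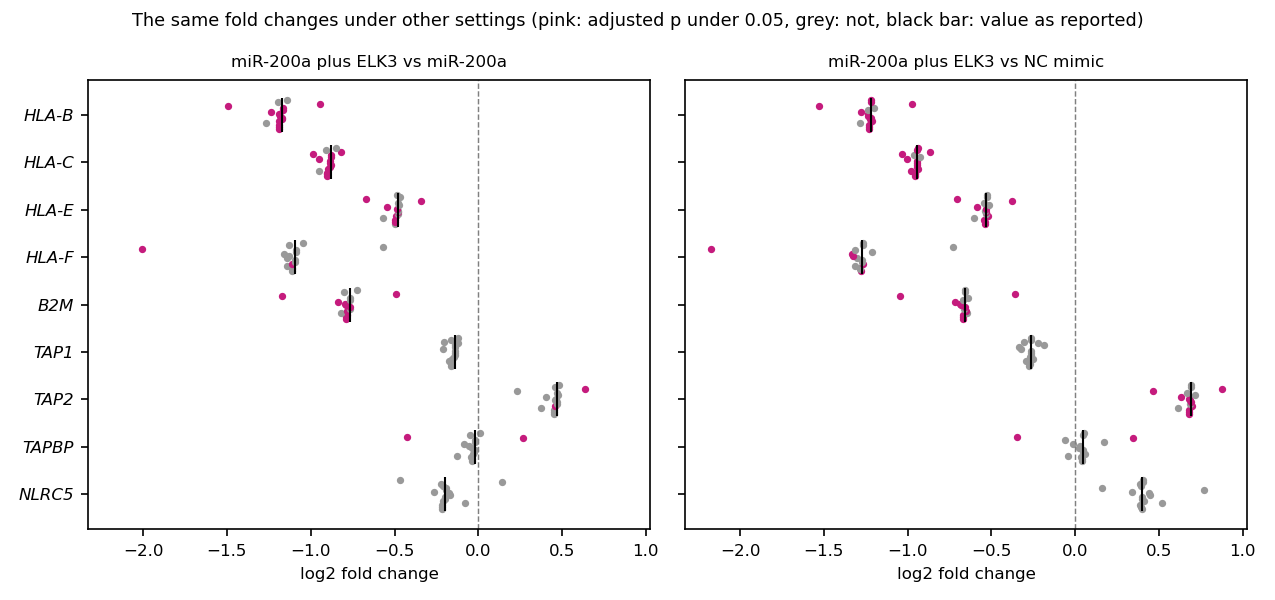
Log2 fold changes of the 9 genes in the 2 comparisons with the ELK3-labelled libraries under each alternative setting, with pink where the adjusted p was under 0.05, grey where it was not and a black bar at the value reported above. HLA-B spans -1.495 to -0.94 in the left panel, and TAPBP spans -0.43 to 0.26 across the dashed line at 0.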

How the data were processed

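RNA of 6 QuantSeq libraries was analysed, 2 for each of 3 groups taken from the sample labels. The files deposited by the authors hold raw counts for each symbol, not normalized. The submitters' processing notes name Bowtie2, edgeR and hg19, and the study used ExDEGA. The counting program and annotation are not given in the sources used here. Counts of the 286 symbols on several of the 25737 lines were summed, and each member had counts on 1 line only. Fits used R 4.3.3 and edgeR 4.0.16 (TMM, filterByExpr with a minimum count of 10, quasi-likelihood test over all 6 libraries with 3 residual degrees of freedom), with Benjamini-Hochberg adjustment over 12650 genes and calls at 0.05. The script was tested on simulated data with 200 changed genes. It called 48% of 2-fold and 91% of 4-fold changes, and 4.14% of its calls were false. The simulation gave all groups the same spread, unlike the data, where the ELK3-labelled replicates lay farther apart. It therefore does not give the error rate of the comparisons made here. Alternatives included DESeq2 1.42.0, limma 3.58.1 on log2(count + 1), other scalings and filters, and each library left out. Named genes are all members, up to 3 called genes per direction, comparison and list, and fixed partners, while the genes most like HLA-B and B2M are up to 5 by correlation. Of the fixed partners and the genes like HLA-B, 1 each is not reported here. Positions and 3′UTRs came from GENCODE 29 on GRCh38, not the build of the counts. Members and lists were chosen with earlier results of these data known. The authors' other experiments are not analysed here.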

Additional observations from a re-analysis of the deposited data

How the results depend on the processing

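With miR-200a against the NC mimic, 0 members were called in every alternative run. Members called against miR-200a numbered 4, but 2 in a model of the 2 compared groups, 0 with limma and 0 to 6 over the fits that left out 1 library. Against the NC mimic they numbered 5, but 2 and 1 in these models and 0 to 7. With a lone library in a group, its spread was assumed to equal that of the others. The summed heavy chains against miR-200a were -1.002 with limma, no longer past the threshold, and -1.06 to -0.85 with 1 library left out. TAPBP turned to -0.043 (limma) and -0.010 (upper-quartile normalization) against the NC mimic, and with 1 library left out it ranged from -0.34 to 0.34 there, from -0.43 to 0.26 against miR-200a, and from -0.041 to 0.19 with miR-200a against the NC mimic. NLRC5 against miR-200a ranged from -0.47 to 0.14. Over all genes, calls for miR-200a against the NC mimic were 34, but 983 with the 2 groups, 88 with DESeq2, 4 with limma, 230 without a filter, 578 by the study's criteria (unadjusted p, fold change and abundance) and 0 to 1010 with 1 library left out. Against miR-200a they were 1637, but 542, 107 with limma, 2490 without a filter and 31 to 4684. Against the NC mimic they were 1629, but 587, 391, 2525, 2457 by the study's criteria and 96 to 4675. Upper-quartile normalization moved the share of higher calls from 54.3% to 41.4% and from 53.8% to 42.9% in the last 2 comparisons, with no change of sign for the 22 listed genes called there. The replicate numbers did not pair the libraries, as same-numbered libraries deviated with correlations of -0.003, -0.036 and -0.108 over the tested genes. The replicate block left 13 genes called with miR-200a against NC mimic and 22 with the third group's numbers crossed, which was added once the data were known. It ended the calls of HLA-E (adjusted p = 0.0721 and 0.0533) and changed no other member's call. The cause of these shifts was not tested. HLA-F and NLRC5 had the fewest counts, 15 to 74 per library.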
